A study of Mus musculus with 32 samples.

Results

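Migratory dendritic cells (DC) of the skin-draining lymph node were compared between the subsets labelled migDC1 and migDC2 with Omni-ATAC-seq, an assay whose transposase cuts and tags open chromatin. The comparison took every floxed library with either cell type label, 4 of migDC1 and 6 of migDC2, which is 10 of the 32 libraries in the series. All 10 came from mice with loxP-flanked Ifngr1 alleles, the gene of the ligand-binding chain of the interferon-γ (IFN-γ) receptor. In the CD11cCREneg/IFNgr1flfl mice, called Cre-negative here, no recombinase was present, and in the CD11cCREpos/IFNgr1flfl mice, called Cre-positive, a Cre under the CD11c promoter is there to delete the gene. The start-site region of Ifngr1 was held by all 10 libraries, so the presence of peaks does not check that deletion. CD11c is carried by DC and also by some other myeloid and lymphoid cells, so this Cre is not limited to the migratory subsets. Each genotype gave 2 migDC1 and 3 migDC2 libraries, and genotype was kept as a stratum in the tests. The other 22 libraries, 6 each of resident cDC1, resident cDC2 and double-negative (DN) migDC from the same floxed genotypes and 4 of migDC2 from wild-type and germline Ifngr1 knockout mice, helped to define the regions and were used to look up those found, but took no part in the test. All 4 migDC1 libraries and 4 of the 6 migDC2 libraries have lettered titles, and the other 2 migDC2 libraries, 1 of each genotype, are numbered without a letter. The title set therefore goes partly with the subset, and the labels do not say what the letters mark. The labels also do not say which libraries came from separate animals, so each p-value reflects only how these samples vary, and that variation may be technical.

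Separate lineages of conventional DC take antigen to lymph nodes. The first lineage, cDC1, depends on the transcription factors IRF8 and BATF3, carries the chemokine receptor XCR1 and is known for cross-presenting antigen to CD8 T cells and for making interleukin-12. The second lineage, cDC2, depends on IRF4, KLF4 and ZEB2 to varying degrees, carries SIRPα and is known for priming CD4 T cells. Both lineages leave the skin through CCR7, and as they mature they raise costimulatory molecules such as CD40.

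The deposited lists held 44991, 60351, 58640 and 57674 peaks in migDC1 Cre-negative 1, Cre-negative 2, Cre-positive 1 and Cre-positive 2, a mean of 55414.0 ± 7036.3 (SD, n = 4). The migDC2 lists held 54657 to 74330 peaks with a mean of 63127.3 ± 6342.1 (n = 6). The groups overlapped, and the difference of -7713.3 peaks had an exact permutation p of 0.1, two-sided with genotype as strata. It was -3873.3 without migDC1 Cre-negative 1 (exact permutation p = 0.4), whose list was the shortest of the 10. Similarity of libraries was measured by the Jaccard index, the number of shared regions divided by the number held by either. It averaged 0.795 within migDC1 (6 pairs), 0.822 within migDC2 (15 pairs) and 0.69 between the subsets (24 pairs). The excess within subsets was 0.1243 (exact permutation p = 0.01, two-sided), the smallest p that the 100 arrangements allow. Read depth is unknown because the lists hold no counts.

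A region in the following is a stretch of 100 bp or more over which 3 or more of the 32 libraries have a peak, and a library holds it when a peak of that library overlaps it by 50% or more of either length. Of 90465 regions, 76572 were held by at least 1 of the 10 libraries and 35579 by all 10. The regions whose totals allowed the smallest p of the design, 0.01, numbered 7046. By the exact conditional test with Benjamini-Hochberg adjustment, 3533 of them passed the threshold of 0.05, which is 50.1% of those tested. Each of these was held by all libraries of 1 subset and by none of the other, with an adjusted p of 0.0199. The migDC1-only regions numbered 1184 (16.8% of those tested) and the migDC2-only regions 2349 (33.3%). In sorted bulk samples, opening in fewer cells and weaker opening per cell cannot be told apart.

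These counts moved with the filter and with list length. When all 20987 regions held by 3 to 7 of the 10 libraries were tested, the exact test called 0, with a smallest adjusted p of 0.0594, and 6400 had an unadjusted p under 0.05 (2358 held more often in migDC1 and 4042 in migDC2). When each of the 10 lists was reduced to its 44991 strongest peaks, the balance turned: 2025 regions were migDC1-only and 1509 migDC2-only, so the migDC1 share of called regions was 57.3% in place of 33.5%. Of the regions named as called in the full lists, 686 of 1184 (57.9%) and 530 of 2349 (22.6%) were called in the same direction at equal list length. None could be called in the opposite direction, because shortening a list only removes peaks. The ratio of the counts changed. Without migDC1 Cre-negative 1, the counts were 2126 migDC1-only and 2360 migDC2-only, and leaving out a library can only keep or add such regions.

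**Figure D1:**
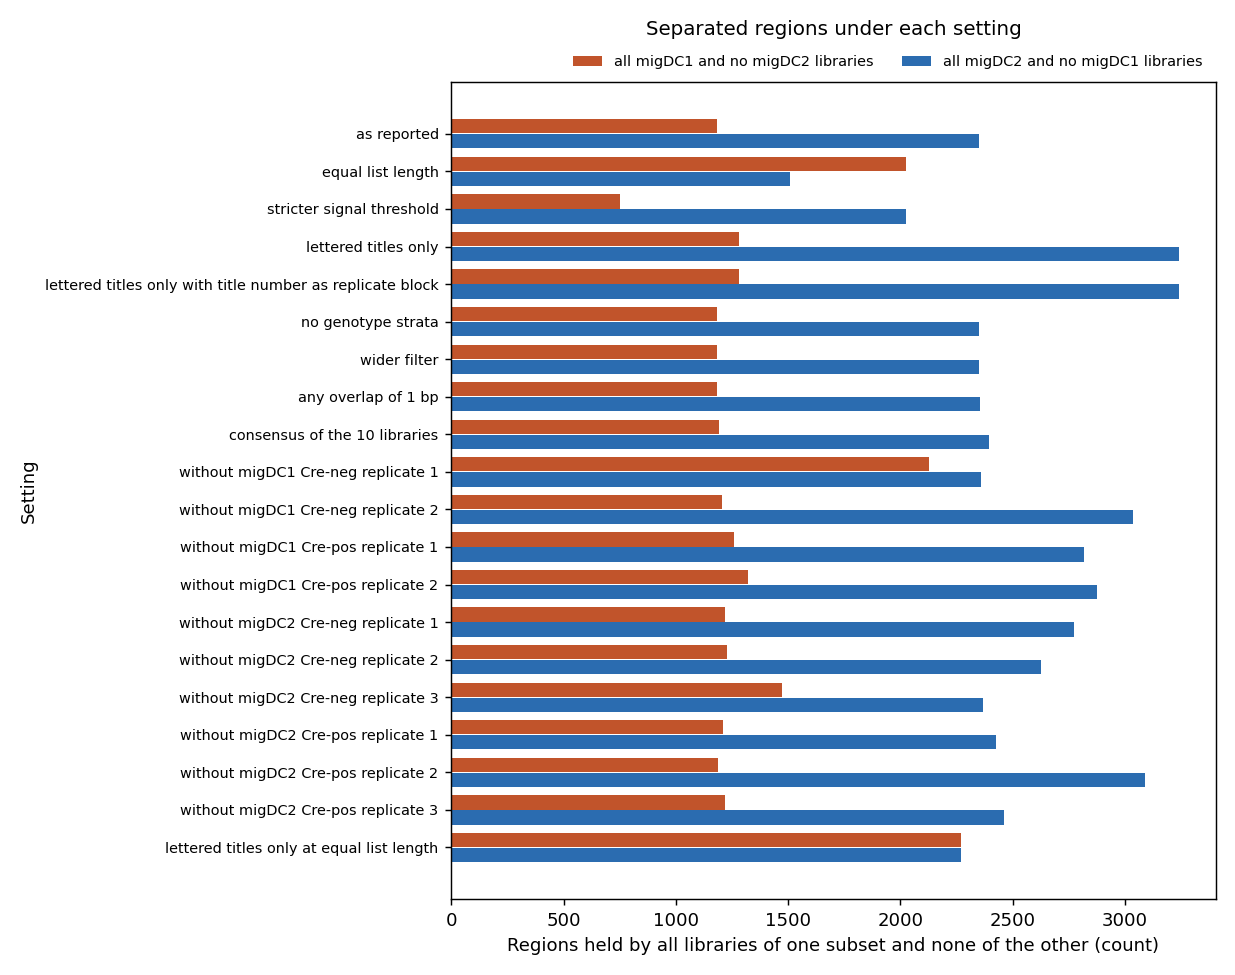
Number of regions (x axis) held by all libraries of 1 subset and none of the other, under each setting (y axis); orange bars are migDC1-only and blue bars migDC2-only regions. The full lists gave 1184 and 2349 regions, equal list length 2025 and 1509, and lettered titles at equal list length 2271 and 2270. Bars count separated regions whether or not the setting's test could pass.

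Start sites of 4 named genes lay in called regions and had a RefSeq promoter window, so their promoters are shown first. They are the 250 bases before the start site on the coding strand (assembly GRCm38.p6, the same build as mm10), printed 5′ to 3′ from RefSeq. Capitals mark every match, on either strand, to 12 short motifs named further on. Xcr1 lies at chr9:123862030-123862279 (minus strand), Clnk at chr5:38876694-38876943 (minus), Zeb2 at chr2:45117443-45117692 (minus) and the first of 2 Emilin2 windows at chr17:71311012-71311261 (minus). The region over the window was migDC1-only in the first pair and migDC2-only in the second pair. For Zeb2 the called region, chr2:45116507-45117572, covers only the part of the printed bases nearest the start site.
Xcr1: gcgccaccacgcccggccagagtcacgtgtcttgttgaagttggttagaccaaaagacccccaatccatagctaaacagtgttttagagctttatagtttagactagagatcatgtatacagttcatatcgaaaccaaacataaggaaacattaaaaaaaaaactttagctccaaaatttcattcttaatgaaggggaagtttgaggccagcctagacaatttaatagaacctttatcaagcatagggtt
Clnk: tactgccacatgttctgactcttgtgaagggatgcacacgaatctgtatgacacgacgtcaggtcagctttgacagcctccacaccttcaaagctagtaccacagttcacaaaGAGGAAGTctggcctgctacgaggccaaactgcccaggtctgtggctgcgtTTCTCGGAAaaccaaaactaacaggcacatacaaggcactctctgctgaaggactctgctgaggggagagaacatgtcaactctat
Zeb2: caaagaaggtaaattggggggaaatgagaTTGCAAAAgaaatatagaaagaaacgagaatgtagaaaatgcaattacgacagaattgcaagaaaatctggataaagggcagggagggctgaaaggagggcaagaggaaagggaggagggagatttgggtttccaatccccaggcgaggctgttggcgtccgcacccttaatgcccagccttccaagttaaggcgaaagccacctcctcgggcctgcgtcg
Emilin2: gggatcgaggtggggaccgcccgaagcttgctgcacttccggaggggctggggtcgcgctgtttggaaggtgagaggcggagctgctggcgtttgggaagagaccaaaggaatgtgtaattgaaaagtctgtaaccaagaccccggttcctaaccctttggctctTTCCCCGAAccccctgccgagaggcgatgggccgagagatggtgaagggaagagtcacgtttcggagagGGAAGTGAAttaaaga
In capitals, Clnk holds GAGGAAGT, the PU.1 motif, and a TTCNNNGAA match, the site bound by STAT factors. Zeb2 holds a TTGCNNAA match, the C/EBP motif, in the part that lies outside its called region. Emilin2 holds TTCNNNGAA and GGAANNGAA, the composite ETS-IRF motif. Xcr1 holds none of the 12 in this window.

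Of 32 cDC1 genes, 15 had a tested region, and 13 had migDC1-only regions and no migDC2-only region. Over all 4087 genes with a tested region, 739 had only migDC1-only called regions, 1445 only migDC2-only ones and 119 both. Xcr1 encodes the receptor for the chemokine XCL1. Of its 2 regions within 1000 bp of the start, chr9:123862697-123864125 was held by all 10 libraries. The other, chr9:123861728-123862357, which covers the start itself, was held by 4 of 4 migDC1 and 0 of 6 migDC2 libraries, as well as by 6 of 6 cDC1, 0 of 6 cDC2 and 0 of 6 DN migDC libraries. All 4 migDC1 libraries held 5 of the 6 regions assigned to Xcr1, and migDC2 libraries held 3 to 4 (median 4.0). Here and for the genes below, such counts include the called regions, which are separated by choice. Groups that lie apart in these counts are therefore no further support. Where 1 region stands for a gene, it was the called region held by most cDC1 libraries (for migDC1-only) or by most cDC2 and DN migDC libraries (for migDC2-only), so its counts in those libraries describe that region and support nothing.

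Cadm1, a cell adhesion molecule used as a cDC1 surface marker, had the most called regions of the cDC1 list. The migDC1 libraries held 19, 27, 27 and 21 of its 36 regions in the order given above, and the migDC2 libraries held 7 to 15 (median 10.5). These counts include the called regions, and the lowest migDC1 library was the short list. Of 7 tested regions, 6 were migDC1-only and 0 migDC2-only, all inside the gene. The region at chr9:47703517-47704295 was held by all 6 cDC1 and no cDC2 or DN migDC library. The region at chr9:47550183-47550451 was held by 0 of 12 resident libraries.

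Wdfy4, a factor required for cross-presentation in cDC1, had 54 regions, of which 37 were held by none of the 10 libraries. Peaks covered 13, 15, 14 and 16 of the 54 in migDC1 and 8 to 10 (median 9.5) in migDC2, with the called regions included. All 3 tested regions were migDC1-only, among them chr14:33070797-33072167 in the gene body, held by 6 of 6 cDC1 and 0 of 6 cDC2 libraries. Clnk, an adaptor protein of immune receptor signalling, had 2 of 2 tested regions migDC1-only. Its start-site region at chr5:38876536-38877187 was held by 5 of 6 cDC1 and 0 of 6 cDC2 libraries, and by 5 of 6 DN migDC libraries.

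Cytokine and ligand genes for T cell priming followed. Il12b encodes the p40 subunit shared by interleukin-12 and interleukin-23. Of its 18 regions, migDC1 libraries held 15, 17, 15 and 17, and migDC2 libraries held 8 to 11 (median 10), with the called regions included. All 4 tested regions were migDC1-only. They lay at chr11:44353194-44353542, chr11:44392358-44392848, chr11:44401752-44402278 and chr11:44409909-44410137, and none of them was held by any of the 12 resident libraries. DN migDC libraries held them in 2, 4, 2 and 0 of 6 cases. At equal list length the region at chr11:44401752-44402278 was called again and the other 3 were not. The start-site region of Il12b was held by all 10 libraries. Il27, which encodes a subunit of interleukin-27, and Tnfsf9, the ligand of the costimulatory receptor 4-1BB, had 1 tested region each, and it was migDC1-only in both. At equal list length the Tnfsf9 region was called again and the Il27 region was not.

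**Figure D2:**
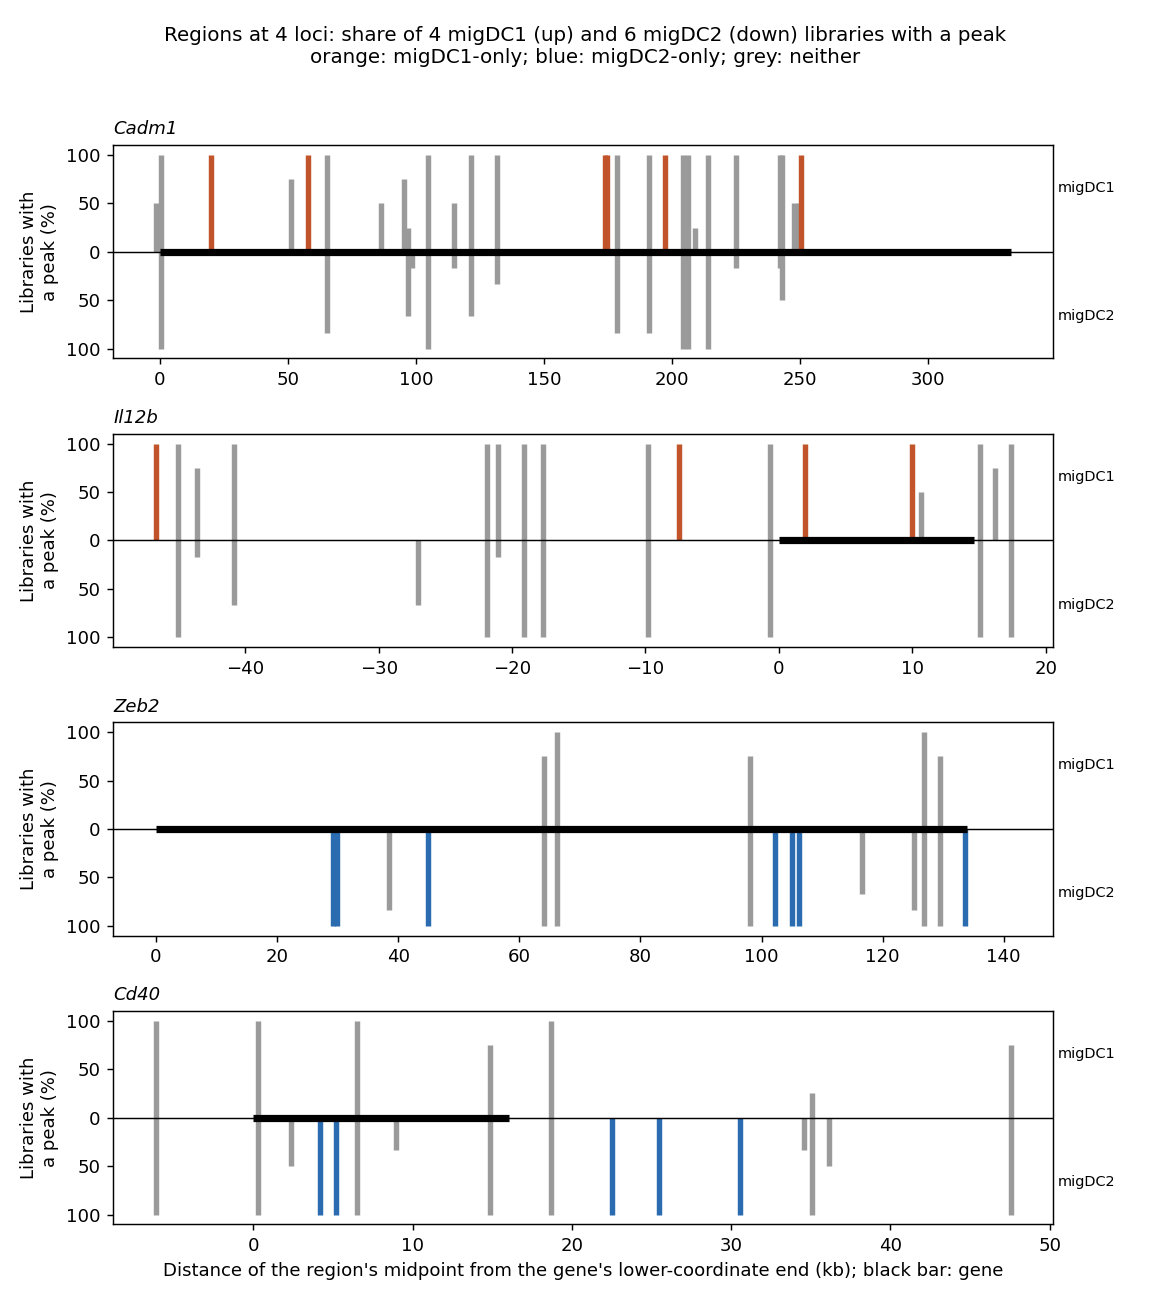
Share of the 4 migDC1 (upward) and 6 migDC2 (downward) libraries with a peak at each region (y axis, percent) against the distance of its midpoint from the lower-coordinate end of the gene (x axis, kb) for Cadm1, Il12b, Zeb2 and Cd40. Cadm1 has 6 and Il12b 4 migDC1-only regions (orange), Zeb2 7 and Cd40 5 migDC2-only regions (blue), beside regions open in both subsets (grey).

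Other migDC1-only regions lay at genes with varied roles. Ly75, the endocytic receptor DEC-205, and Ccr1, a receptor for inflammatory chemokines, had 1 of 1 tested region each. Among transcription regulators, Bcl6 and Hivep3 had 1 of 1. The Bcl6 region at chr16:24002323-24002794 was held by 0 of 12 resident and 0 of 6 DN migDC libraries, whereas the Hivep3 region was held by 3 of 6 cDC1 libraries. The survival genes Bcl2l1, which encodes BCL-xL, and Birc3 had 1 of 1 each, neither held by any resident library. Laptm4b, a lysosomal membrane protein, had 3 of 3. For Ptpn2, a phosphatase that restrains JAK-STAT signalling, 2 of 4 tested regions were migDC1-only and 0 migDC2-only. Serpina3g, an IFN-γ-induced protease inhibitor, had 1 of 1. At equal list length the called regions of Ccr1, Birc3 and Ptpn2 were not called, and those of the other genes in this paragraph were.

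Outside the lists, the genes with most migDC1-only regions were Lrba, a vesicle trafficking protein that protects CTLA-4 from degradation, with 8 of 8 tested regions, and Camk1d, a calcium-dependent kinase, with 6 of 7. Of 28 Lrba regions, migDC1 libraries held 17, 19, 22 and 20 against 6 to 8 in migDC2 (median 8.0), with the called regions included. The Camk1d region at chr2:5729926-5730907 was strong in migDC1: its peak had a signal percentile of 84.9 to 88.3 in the 4 lists. It was held by all 6 cDC1 and all 6 DN migDC but by no cDC2, migDC2 or germline migDC2 library. Ankrd6, Eif4g3 and Kcnk10 had 4 of 4 tested regions migDC1-only. Aff3 had 4 of 5, and Bclaf1, Dph5, Galnt7 and Homer2 had 3 of 3. At equal list length all called Ankrd6 regions were called again, and each other gene here kept some and lost others.

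Of 32 cDC2 genes, 15 had a tested region. Among them, 8 had only migDC2-only called regions and 1 had called regions in both directions, against 1445 and 119 of all 4087 genes tested. Zeb2, a zinc-finger repressor needed for cDC2 and monocyte identity, had all 7 tested regions migDC2-only. Of its 16 regions, the migDC1 libraries held 2, 5, 5 and 5 and the migDC2 libraries 12 to 15 (median 15). The 7 called regions of Zeb2 are part of these counts. Of its 3 start-site regions, chr2:45109134-45111459 was held by all 10 libraries and chr2:45111675-45114302 by 3 of 4 migDC1 and 6 of 6 migDC2 libraries. The called regions included the third, chr2:45116507-45117572, held by 6 of 6 cDC2 and 1 of 6 cDC1 libraries, and 4 regions held by no resident library, such as chr2:45028094-45028939, which 6 of 6 DN migDC libraries held. Of the 7, this start-site region and the region at chr2:45088309-45088807 were not called at equal list length.

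Sirpa, which encodes the inhibitory receptor SIRPα that marks cDC2, had 3 of 3 tested regions migDC2-only. In migDC1, 5, 10, 8 and 8 of its 18 regions were held, and in migDC2 13 to 16 (median 16). The 3 called regions are part of these counts. The region at chr2:129596858-129598015 was among the strong ones, with a signal percentile of 67.1 to 97.1 in the migDC2 lists. It was called again at equal list length, and the other called Sirpa regions were not.

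Several other regulators and receptors were in the same set, some of them known from macrophages and monocytes. Adgre1, the macrophage marker F4/80, had 3 of 3 tested regions migDC2-only, and Mrc1, the mannose receptor, had 4 of 4. Of 12 Mrc1 regions, migDC1 libraries held 2, 3, 3 and 3 and migDC2 libraries 7 to 9 (median 7.0). Fosl2, an AP-1 subunit, had 3 of 4 tested regions, Cebpa 2 of 2, Runx3 2 of 5 and Ahr, the aryl hydrocarbon receptor, 1 of 1. Of these called regions, chr5:32157827-32164545 at Fosl2, chr7:35098553-35100058 at Cebpa, chr4:135164519-135165929 at Runx3 and the Ahr region chr12:35479348-35481329 were each held by all 12 resident libraries. Tlr2 and Plaur, the urokinase receptor, had 2 of 3 each. At equal list length no called region of Cebpa, Runx3, Ahr or Plaur was called again, while Adgre1, Mrc1, Fosl2 and Tlr2 kept some.

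At the 48 maturation and migration genes, 19 tested regions were migDC2-only and 8 migDC1-only, shares close to those of all tested regions. Cd40, the costimulatory receptor engaged by T cell help, had 5 of 5 tested regions migDC2-only and none of the 5 was held by any of 12 resident libraries. Of 16 Cd40 regions, 4, 7, 6 and 6 were held in migDC1 and 12 to 15 in migDC2 (median 14). The broadest were chr2:165076176-165080107, which is 3932 bp wide, and chr2:165084077-165088260, which is 4184 bp wide, both beyond the gene. The first was held by 6 of 6 DN migDC and 3 of 4 germline migDC2 libraries, and its peak had a signal percentile of 83.6 to 99.9 in migDC2. A gene-end region at chr2:165054315-165057449 was held by all 10 libraries.

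Ccl22, a chemokine that attracts CCR4-bearing T cells, was among the markers given for this comparison, without a side. The migDC1 libraries held 5, 6, 6 and 6 of its 9 regions and migDC2 libraries 8 to 9 (median 9.0). Its start-site region was held by all 10 libraries, and 2 of 3 tested regions, chr8:94750873-94751958 and chr8:94755815-94756643, were migDC2-only. The second of these was not called at equal list length. Ccr7 likewise had a gene-end region in all 10 libraries and 2 of 3 tested regions migDC2-only, at chr11:99123893-99124637 and chr11:99127618-99128649. Of 13 Ccr7 regions, migDC1 libraries held 6, 9, 8 and 7 and migDC2 libraries 10 to 13 (median 11.5). Socs3, a feedback inhibitor of cytokine receptors, had 4 of 4 tested regions migDC2-only. For Ccl22, Ccr7 and Socs3 the groups did not overlap in the number of regions held, but the called regions are part of these counts. S1pr1, a receptor that guides cells along sphingosine-1-phosphate, had 2 of 3 tested regions migDC2-only, and Epcam, an adhesion molecule of Langerhans cells, had 1 of 1. At equal list length the Epcam region was not called, the called Ccr7 regions were, and Socs3 and S1pr1 kept some of theirs.

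Outside the lists, Litaf, an endosomal membrane protein, had 9 of 9 tested regions migDC2-only, and migDC1 libraries held 9, 11, 11 and 11 of its 26 regions against 22 to 25 in migDC2 (median 24.0). Myo1e, an unconventional myosin, had 8 of 8, Nrp2, a semaphorin and VEGF co-receptor, 6 of 6, Il1rl1, the interleukin-33 receptor, 5 of 5, and Cd109, Emilin2 and Lrrfip1 4 of 4 each. Malt1 and Mrpl39 had 5 of 6. At equal list length no called region of Il1rl1, Cd109 or Mrpl39 was called again. Litaf, Myo1e, Nrp2, Emilin2, Lrrfip1 and Malt1 each kept some and lost others. No migDC1 library held any of the 7 Cd109 regions, while migDC2 libraries held 4 to 5 (median 4.5). The Nrp2 region at chr1:62724259-62725426 had a signal percentile of 72.8 to 84.2 in migDC2.

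Of the genes most used to tell the lineages apart, many had no region that met the condition for testing in the full lists. A difference in presence of peaks could not be tested there. Irf8, also among the markers given for this comparison, had 28 regions, 12 of them held by all 10 libraries, and none met the condition for testing. The migDC1 libraries held 16, 22, 23 and 21 Irf8 regions and migDC2 libraries 15 to 20 (median 17.5), with overlap. Batf3, Clec9a, Itgae (CD103), Itgam (CD11b), Klf4, Mgl2 and Cd207 (langerin) also had no tested region. Clec9a had 2 regions in every one of the 10 libraries. Some of these regions leaned to a side without meeting the condition for testing. The regions over the starts of Itgam (chr7:128062257-128062999) and Mgl2 (chr11:70129946-70130447) were each held by 1 of 4 migDC1 and 6 of 6 migDC2 libraries. At equal list length this Mgl2 region was called migDC2-only. A second region near the Mgl2 start was held by all 10. Others leaned away from the lineage of their gene. Regions of Irf8 (chr8:120725036-120725861) and Itgae (chr11:73131010-73131389) were likewise held by 1 of 4 migDC1 and 6 of 6 migDC2 libraries. An untested region of Irf4 (chr13:30777757-30778346) was held by 3 of 4 migDC1 and 0 of 6 migDC2 libraries. Irf4, Ifngr1 and Cd274 (PD-L1) had 1 tested region each, and it was not called. Peak height was not compared, so a difference in how open a shared region is was not tested.

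**Figure D3:**
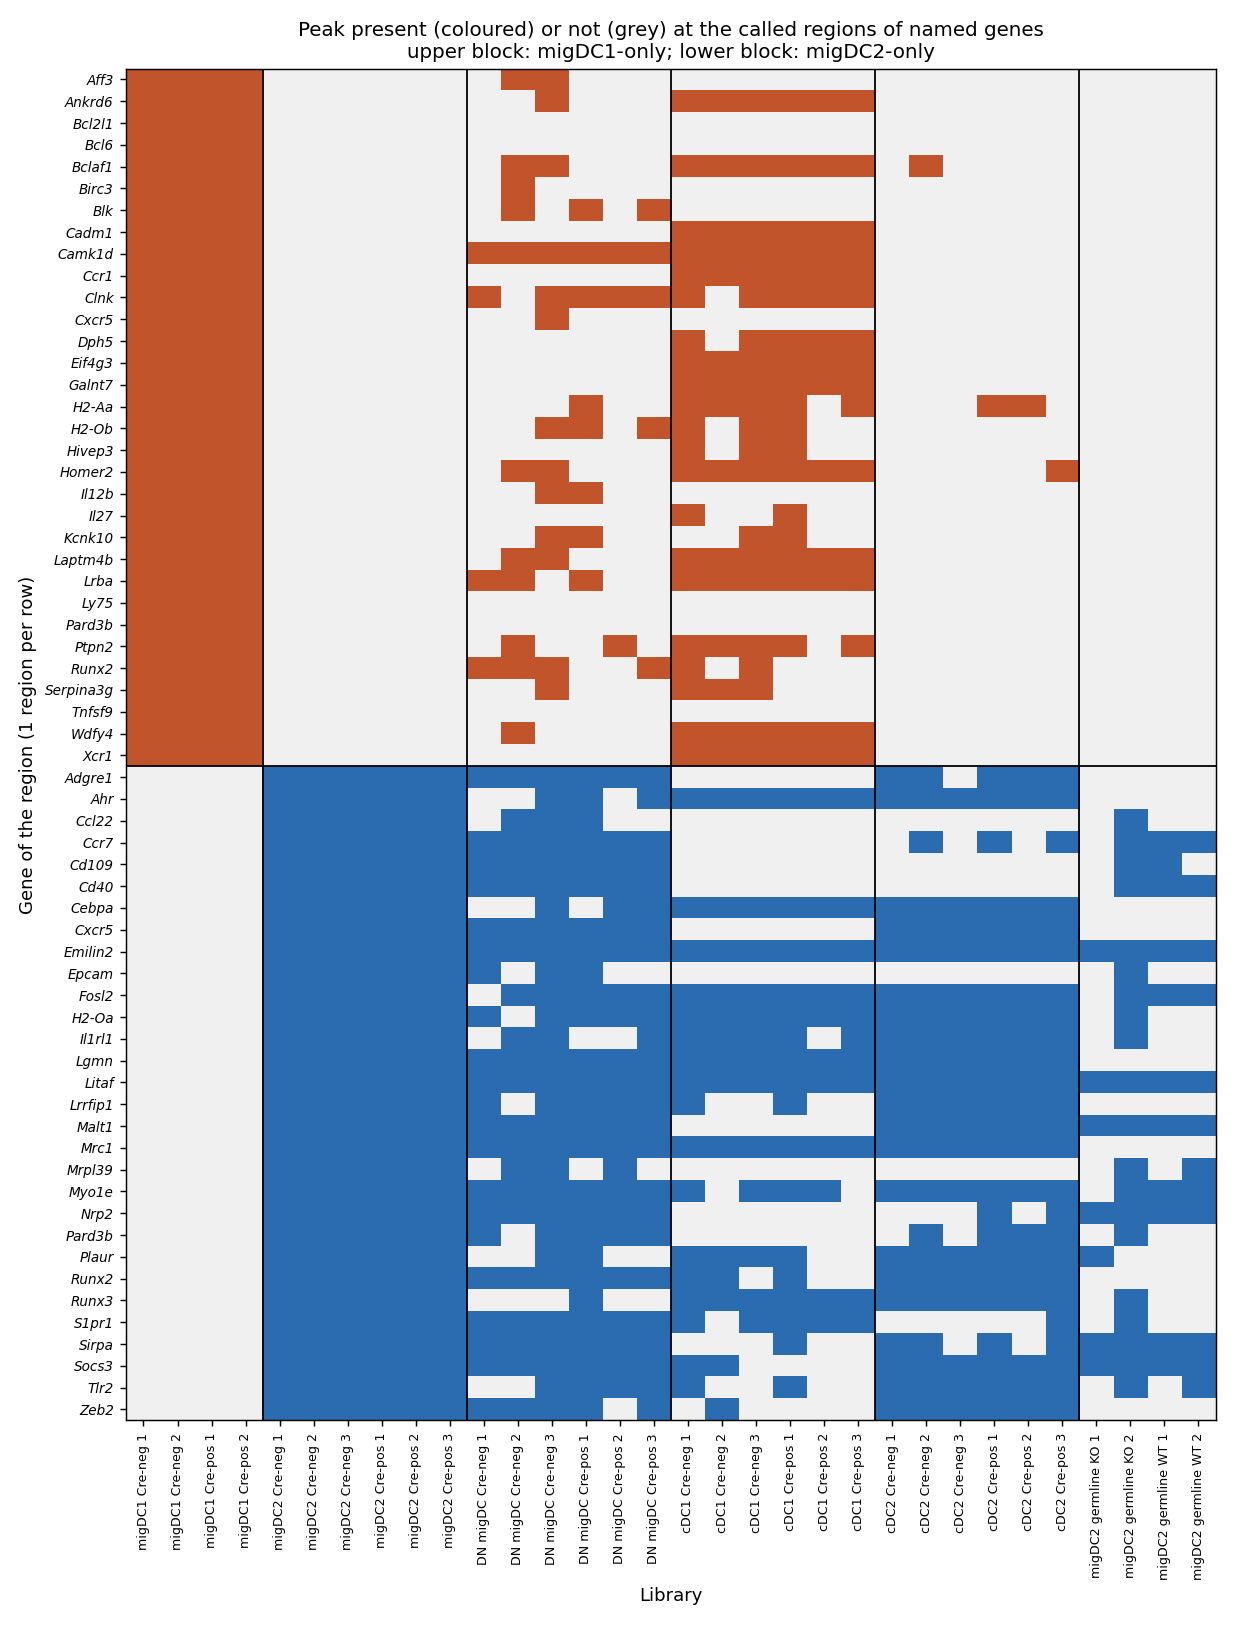
Presence (coloured) or absence (grey) of a peak in each of the 32 libraries (x axis) at 1 called region per gene and direction (y axis), for the named genes reported here. The migDC1 and migDC2 columns are separated by the choice of regions, and each row is the called region of its gene held by most libraries of the matching lineage. The other columns show which of the named migDC1-only regions (orange) and migDC2-only regions (blue) were held by DN migDC, cDC1, cDC2 and germline migDC2 libraries, with no orange cell in the 4 germline columns.

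Counts over the gene lists are read beside the shares of all tested regions, 16.8% migDC1-only and 33.3% migDC2-only. Of 35 tested regions at cDC1 genes, 25 (71.4%) were migDC1-only and 1 (2.86%) migDC2-only. The exception was a region of Nfil3. Of 31 tested regions at cDC2 genes, 1 (3.23%) was migDC1-only, at Cd9, and 20 (64.5%) migDC2-only. These lists define the lineages, and they were drawn up with results of these data known. At equal list length the counts were 42 and 1 of 52 for cDC1 genes and 4 and 15 of 27 for cDC2 genes, so the same side led in both lists.

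Other lists were less one-sided. At DC transcription factors, 6 of 79 tested regions (7.59%) were migDC1-only and 36 (45.6%) migDC2-only, and at equal list length 17 and 23 of 61. At maturation and migration genes, 8 of 60 (13.3%) were migDC1-only and 19 (31.7%) migDC2-only, close to the shares of all tested regions, and at equal list length 15 and 12 of 38. For MHC class II presentation the counts were 2 and 6 of 9. H2-Aa and H2-Ob had the migDC1-only regions, and H2-Ab1, H2-DMa, H2-Oa and Lgmn the migDC2-only ones. At equal list length they were 4 and 1 of 6, so the side with more regions changed with list length. The 3 migDC1-only regions of MHC class I and cross-presentation genes were all at Wdfy4. For T cell priming cytokines and ligands, 6 of 12 were migDC1-only and 1 migDC2-only, at Il10, and at equal list length 10 and 1 of 18; of the 6, Il12b gave 4.

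Of the other lists, pattern recognition genes had 2 migDC1-only and 10 migDC2-only of 18 regions, Langerhans and skin DC genes 1 and 9 of 18, tolerance-associated genes 0 and 6 of 14 and chemokine and growth factor receptors 4 and 7 of 18. At equal list length these became 3 and 4 of 11, 3 and 5 of 16, 2 and 3 of 10, and 4 and 6 of 15. In the IFN-γ receptor pathway, 2 of 12 regions were migDC1-only, both at Ptpn2, and 6 migDC2-only, at Socs3, Irf1 and Jak2; at equal list length 5 and 4 of 12. IFN-γ-induced genes had 1 and 1 of 5, at Serpina3g and Irf1. Ubiquitously active genes had 0 and 1 of 4.

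**Figure D4:**
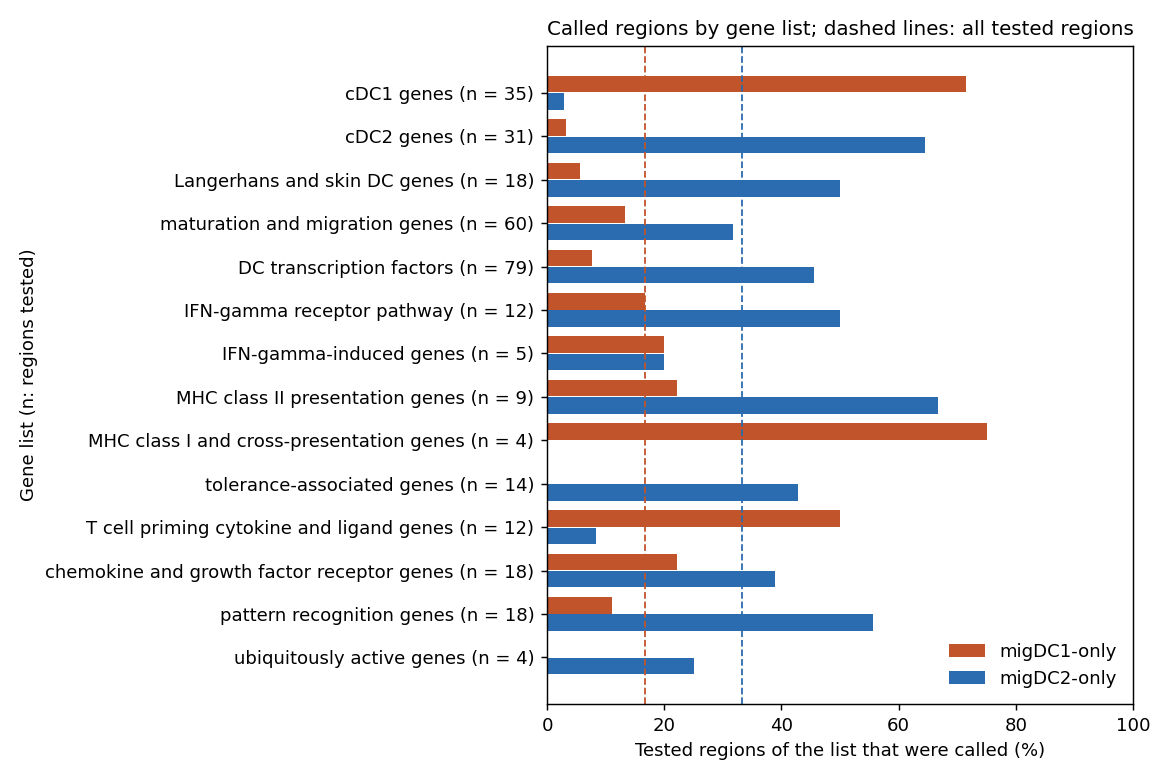
Percent of the tested regions of each gene list (y axis, with the number tested) that were migDC1-only (orange bars) or migDC2-only (blue bars); dashed lines mark 16.8% and 33.3% of all tested regions. cDC1 genes reach 71.4% migDC1-only and cDC2 genes 64.5% migDC2-only.

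Markers of other cell types that a sort could hold were counted the same way. At the 12 monocyte and macrophage markers, 0 of 9 tested regions were migDC1-only and 7 migDC2-only, with Adgre1, F13a1 and Vcan among the genes; at equal list length 1 and 3 of 6. The migDC1 libraries held 37.7% to 53.6% of the 69 regions of this list and the migDC2 libraries 55.1% to 73.9%. Their part in the migDC2-only set was not tested, and start-site or gene-end regions of Cd68, Csf1r, Lyz2, C1qa, Fcgr1 and Mertk were held by all 10 libraries. At B cell markers 3 of 5 were migDC1-only, 2 at Blk, a Src-family kinase, and 1 at Ebf1, and 0 migDC2-only. The migDC1 libraries held 31.8% to 51.5% of the 66 B cell marker regions and the migDC2 libraries 24.2% to 66.7%, and no migDC1 or migDC2 library held a region of Cd79b. T cell markers had 0 and 1 of 4, NK and ILC markers 0 and 1 of 2, and plasmacytoid DC markers 3 and 2 of 13, all 5 at Runx2. Neutrophil and stromal and epithelial markers had no tested region.

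The 22 libraries that took no part in the test were looked up at the called regions, which their peaks helped to define. Resident cDC1 libraries held 33.5% to 45.0% of the migDC1-only regions (mean 39.8 ± 5.2, SD, n = 6) and resident cDC2 libraries 0.5% to 4.8% (2.4 ± 2.0, n = 6). Of the migDC2-only regions, cDC1 libraries held 25.7% to 45.5% (35.3 ± 7.1) and cDC2 libraries 36.5% to 61.6% (49.4 ± 9.9). Of all regions, cDC1 libraries held 62.9 ± 6.9% and cDC2 libraries 49.3 ± 8.2%. The cDC2 share of migDC2-only regions was thus near their share of all regions. The 2 lineages did not overlap for the migDC1-only set and overlapped for the migDC2-only set, but the cDC2 lists were shorter, with a mean of 47117.8 peaks against 62153.3 in cDC1. With the regions called at equal list length, 2 cDC2 lists, of 38455 and 39312 peaks, were shorter and kept whole. There, cDC1 libraries held 29.6% to 37.9% and cDC2 libraries 52.8% to 64.3% of the migDC2-only regions, without overlap. The share of migDC1-only minus that of migDC2-only regions was 51.6 points higher in cDC1 than in cDC2 libraries (exact permutation p = 0.005, two-sided with genotype as strata, the smallest that 400 arrangements allow). All 6 cDC1 libraries lay above all 6 cDC2 libraries in this measure. With lists reduced in length the difference was 55.2 points (exact p = 0.005).

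DN migDC libraries held 55.0% to 84.4% of migDC2-only regions (66.6 ± 10.8, n = 6) and 9.8% to 39.8% of migDC1-only regions (19.6 ± 11.8), and in 6 of 6 libraries the migDC2-only share was the higher. Of all regions, DN migDC libraries held 64.0 ± 5.2%, near their share of migDC2-only regions. Germline migDC2 libraries, from another cohort, held 0.0% of the migDC1-only regions in 4 of 4 libraries, and 8.0% to 43.0% of the migDC2-only regions (20.4 ± 15.6, n = 4). Their lists were short, at 32649 to 42446 peaks, and held 37.9 ± 4.8% of all regions. At equal list length, with the germline lists kept whole, they held 0.2 ± 0.3% and 53.3 ± 23.7%. These values for DN and germline libraries are descriptions without a test.

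**Figure D5:**
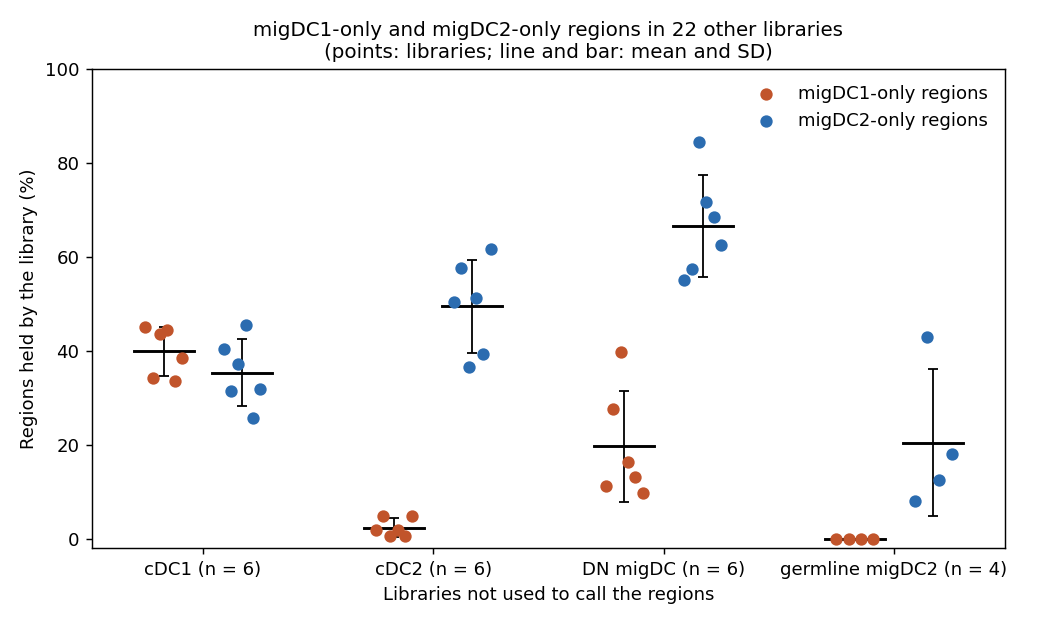
Percent of the migDC1-only (orange) and migDC2-only (blue) regions held (y axis) by each of the 22 libraries that did not take part in calling them, grouped by subset (x axis); points are libraries, black lines means and bars SD. The orange points of cDC2 lie between 0.5% and 4.8% and those of cDC1 between 33.5% and 45.0%.

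Counted region by region, 589 of the 1184 migDC1-only regions (49.7%) were held by none of the 12 resident libraries, against 2731 of the 7046 tested (38.8%). A further 253 (21.4%, against 5.42% of those tested) were held by all 6 cDC1 and no cDC2 library, with regions of Cadm1, Ankrd6, Eif4g3 and Lrba among them, and 0 had the reverse pattern. Of the 2349 migDC2-only regions, 765 (32.6%) were held by no resident library, 119 (5.07%, against 2.13% of those tested) by all 6 cDC2 and no cDC1 library, and 3 by all 6 cDC1 and no cDC2 library. Another 329 (14%, against 8.05%) were held by all 12 resident libraries, so these were open in both resident lineages and in migDC2 but in no migDC1 library. In all, 316 migDC1-only regions (26.7%) and 77 migDC2-only regions (3.28%) were held by none of the other 22 libraries, against 799 of the 7046 tested (11.3%). Those 22 include 4 germline migDC2 libraries and no further migDC1 library, so the shares of the 2 sets are not like for like.

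Called regions lay mostly away from start sites. A region counted as a start site when it came within 1000 bp of a RefSeq start, or of either gene end where the strand was not known. Such regions made up 3.12% of migDC1-only (37 of 1184), 6.68% of migDC2-only (157 of 2349), 6.47% of tested regions and 30.4% of the regions held by all 10 libraries. Gene bodies held 56.6%, 51.2%, 51.7% and 37.9% of these sets. The median width was 433 bp for migDC1-only, 521 bp for migDC2-only and 1018 bp for regions held by all 10. Genes were assigned by distance alone, which leaves the target gene of a region unknown.

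Promoter windows of RefSeq that overlapped called regions by at least 150 bases numbered 14 for migDC1-only, at 13 genes, and 101 for migDC2-only, at 91 genes, out of 32817. The 250 bases before each start were searched on both strands for 12 motifs: AP-1 TGANTCA, the IRF repeat GAAANNGAA, ETS-IRF GGAANNGAA, PU.1 GAGGAAGT, RUNX TGTGGTT, NF-κB GGAANTTCC, the E-box CACCTG, KLF CCACACCC, CTCF CCANNAGGG, C/EBP TTGCNNAA, NFIL3 TTACNTAA and the STAT site TTCNNNGAA. GGAANNGAA and GAAANNGAA can overlap each other's matches. The IRF repeat was in 3 of 14 migDC1-only windows (21.4%), 7 of 101 migDC2-only windows (6.9%) and 7.1% of all windows. The E-box was in 4 of 14 (28.6%), 19 of 101 (18.8%) and 17.2%. AP-1 was in 2 of 14 (14.3%), 9 of 101 (8.9%) and 6.8%, and the STAT site in 3 of 14 (21.4%), 11 of 101 (10.9%) and 7.0%. RUNX was in 2 of 14, 2 of 101 and 4.4%. C/EBP was in 2 of 14, 10 of 101 (9.9%) and 9.6% of all windows. With 14 windows, a single match moves a share by 7.1 points. A match can lie outside the called region, because an overlap with part of the window was enough. These matches describe promoters only, and the sequence of the gene body and distal regions was not analysed here.

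The comparison was also made within each genotype. In the Cre-negative libraries alone, 2 of migDC1 and 3 of migDC2, 1501 regions were held by migDC1 only and 5997 by migDC2 only, a migDC1 share of 20%. In the Cre-positive libraries alone these were 3456 and 4044, a share of 46.1%. Of the Cre-negative regions, 98.1% of the migDC1-only and 83.9% of the migDC2-only ones leaned the same way in the Cre-positive libraries, and of the Cre-positive regions 86.2% and 98.2% leaned the same way in the Cre-negative libraries. The share of all regions leaning each way was not counted, so these percentages have no background beside them. The difference in peaks was -13289.7 in Cre-negative and -2137.0 in Cre-positive libraries, and the difference between these, 11152.7, had an exact permutation p of 0.3. The short list of migDC1 Cre-negative 1 was 1 of the 2 migDC1 libraries of its genotype. Genotype and this library cannot be told apart in the share.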

How the data were processed

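Peaks were deposited by the authors as 1 narrowPeak list per library, without pooling. Per the submitters' processing notes the tools were Bowtie2, deepTools and Genrich, and the build mm10; versions, settings and any shift for the transposase's offset: not given in the sources used here. Peak signal, as deposited and at least 200 in these lists, ranked peaks within a list, and the deposited −log10 p value broke ties. Such lists lack what fell under the caller's threshold, and a longer list reaches weaker peaks.

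The 19 autosomes and X were kept. Regions, calls and the exact conditional test followed the definitions in the results, with Python 3.11.15, numpy 2.4.6, pandas 2.3.3 and scipy 1.17.1; the test was checked on simulated data. Regions were assigned to 21631 protein-coding RefSeq genes of GRCm38.p6, to a start within 1000 bp (known for 17274 genes), else the gene body, else the nearest end within 50000 bp.

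Named genes were 19 always given, up to 20 list genes per direction with at most 4 per list, and 10 others per direction, by number of called regions. Of 385 listed symbols, Trac was not matched. Of the named genes, 2 are not reported here. Members and lists were chosen with earlier results of these data known. The 19 alternatives included equal list length, a signal of at least 400, other filters and overlaps, lettered titles only and each library left out. The planned motif search in region sequence was not run, because no genome was given; promoter windows took its place, chosen after the data were seen.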

Additional observations from a re-analysis of the deposited data

Results flagged for a closer look

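The percent of a list's regions held was compared between the libraries of a subset, and a library was singled out when its gap to the nearest other was large against the whole range (Dixon's criterion). Of 56 groups checked, 11 gave such a library. Chance gives about 1 in 20 for a single group. The groups share libraries and some genes, so their count cannot be set against that rate.

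In 9 of the 11, migDC1 Cre-negative 1 lay below the other 3 migDC1 libraries. It held 52.6% of the regions of cDC1 genes, 38.4% of cDC2 genes, 47.8% of DC transcription factors, 54.8% of MHC class II presentation genes and 59.3% of tolerance-associated genes. It held 56.4% of T cell priming genes, 46.8% of pattern recognition genes, 59.7% of ubiquitously active genes and 46.1% of T cell markers. This library had 44991 peaks and held 45.2% of all regions, against a median of 59.0% in migDC1.

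In the other 2, migDC2 Cre-positive 2 lay below the other migDC2 libraries, with 67.0% of the regions of maturation and migration genes and 70.3% of those of IFN-γ-induced genes. Its list held 54657 peaks, the shortest of migDC2.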

How the results depend on the processing

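Without any 1 library, migDC1-only regions numbered 1186 to 2126 and migDC2-only regions 2360 to 3087. Leaving out migDC1 Cre-negative 1 gave the 2126. Leaving out libraries can only keep or add separated regions, here and with lettered titles only. That every called region stayed separated there was therefore fixed in advance. At equal list length there were 2025 and 1509 regions (migDC1 share 57.3%), and with a signal of at least 400 there were 750 and 2024. With the wider filter 0 and 0 were called. With lettered titles only, the test cannot pass (smallest exact p 0.0556) and called 0 and 0, while 1282 and 3241 regions were separated. Lettered titles at equal list length, chosen after seeing the data, called 0 and 0 and separated 2271 and 2270 (50%). The share was 20% in Cre-negative and 46.1% in Cre-positive libraries alone. Without genotype strata, with 1 bp of overlap and with a consensus of the 10 libraries alone, the counts stayed within 1.5 times.

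The title number as a replicate block called 0 and 0 regions (smallest exact p 0.125), with a Jaccard excess of 0.1174. Deviations of same-numbered libraries had correlations of 0.047 and 0.0. With so few lettered libraries per subset and genotype, these values cannot decide whether the numbers pair the libraries.

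The Jaccard excess was 0.1112 to 0.1347 without any 1 library, 0.1174 with lettered titles (exact p = 0.0556) and 0.1341 with lettered titles at equal list length (exact p = 0.0556). The peak difference ranged from -11553.3 to -3873.3 without any 1 library, and was -9122.6 without migDC2 Cre-positive 2 (exact permutation p = 0.0167). The resident difference stayed between 48.7 and 55.2 points. Of the 64 named regions, 39 were called at equal list length and 31 at the higher signal. Depth is unknown, so a missing peak may be a closed region or a shallow list.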

Other observations

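Among genes outside the lists, picked here after their values were seen, start sites of Cd96, an adhesion receptor of T and NK cells, and Clec2h, a C-type lectin, lay in migDC1-only regions (chr16:46120130-46120552 and chr6:128662173-128662566). Start sites of Trem1, an activating myeloid receptor, Siglece, an inhibitory sialic acid receptor, and Ptgs1, which encodes cyclooxygenase-1, lay in migDC2-only regions (chr17:48232297-48233076, chr7:43659859-43660328 and chr2:36230300-36230923). Il2, the gene of interleukin-2, had 3 migDC2-only regions that no resident library held.

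Called regions of both directions were found at 119 of 2303 genes with any called region. Pard3b, a cell polarity protein, had 1 migDC1-only and 6 migDC2-only of 8 tested regions. Runx2 had 3 and 2 of 10, Smad3, a mediator of TGF-β signalling, 2 and 2 of 4, and Cxcr5, the receptor for CXCL13, 1 and 2 of 3. These are values without a test of the genes against others.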
